A study of Mus musculus with 12 samples.

Results

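The 10 genes described here encode secreted inflammatory mediators, or the enzyme that makes one: Ptgs2, Ptx3, Saa3, Csf1, Il6, Lif, Cxcl1, Cxcl5, Ccl2 and Ccl7. They were taken by gene symbol from a deposited table of 54532 mouse genes, and each symbol matched 1 row. RNA was measured in C2C12 cells, an immortalised mouse skeletal muscle line that is 1 clone and grows as myoblasts, the mononucleated precursors of muscle fibres. Confluent dishes had been exposed for 24 h to 0, 2 or 6 µM PFOS (perfluorooctanesulfonate, a persistent fluorinated surfactant), with 4 libraries per dose and no further treatment named for any group. Whether a dose's 4 libraries stem from separate cultures is not stated, and the p-values therefore measure the spread among these libraries, part or all of which may be technical.

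These genes are best known from infection and injury, where immune cells, fibroblasts and muscle cells switch them on through NF-kB, AP-1, CREB/ATF and C/EBP transcription factors. Their mRNAs are often short-lived, because AU-rich stretches in their 3′ untranslated regions (3′ UTRs) recruit decay factors. In damaged skeletal muscle, chemokines draw in neutrophils and monocytes, Csf1 supports the macrophages that follow, and prostaglandins, Il6 and Lif act on the muscle precursor cells themselves.

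The libraries held 30206155 to 50351082 counts each. Those farthest from the mean of their dose were 0 µM replicate 1, 6 µM replicate 2 and 6 µM replicate 3, with root mean square deviations of 0.402, 0.424 and 0.422 in log2 CPM. They are called the 3 most deviating libraries, and of the calls on the 10 genes below, only that of Csf1 between 6 and 2 µM ended without them. Of the 54532 genes, 16038 had enough counts to be tested, and all 10 mediators were among them. Levels are given as CPM, the counts-per-million scale, after TMM scaling of the library sizes. The myoblast markers were present, with a summed level of 828 to 960 CPM at 0 µM, 854 to 887 at 2 µM and 824 to 882 at 6 µM. Of 16 macrophage and leucocyte markers, 11 averaged under 0.1 CPM over the 12 libraries, among them Ptprc, Adgre1 and Itgam, and Cd3e had no count at all. Cd74, Cd14 and Lyz2 were the highest of the 16, at 8.58, 7.58 and 2.91 CPM on average at 0 µM. The sum of these 16 was 19.7 to 22.8 CPM at 0 µM, 20.9 to 22.6 at 2 µM and 20.6 to 25.3 at 6 µM. None of the 5 tested leucocyte markers changed at 2 or 6 µM against 0 µM (edgeR's quasi-likelihood test, Benjamini-Hochberg adjusted), with 1 higher at 6 µM at an unadjusted p under 0.05. Of 11 tested myoblast markers, 1 rose and 5 fell at 6 µM, and none was called at 2 µM, where 5 were lower at an unadjusted p under 0.05. Of 6 tested fibroblast markers, 2 fell at 2 µM and 3 at 6 µM, and of 3 tested adipocyte markers, 1 rose at 2 µM and 2 at 6 µM. Over all tested genes, 2.35% were called at 2 µM and 8.24% at 6 µM against 0 µM. The summed fibroblast markers lay at 12362 to 14830 CPM at 0 µM, 12235 to 13604 at 2 µM and 11404 to 11952.5 at 6 µM. The summed adipocyte markers lay at 43.1 to 48.8 CPM at 0 µM, 50.3 to 54.3 at 2 µM and 55.0 to 58.7 at 6 µM, with Adipoq at 0 in every library. The part of these shifts in the results was not tested. In cultures measured in bulk, fewer cells that express a gene and less RNA per cell cannot be told apart.

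The mediators spanned a wide range of levels. Different genes were set side by side per kilobase of the deposited gene length, which can exceed the length of the mRNA. For Cxcl1 its 1875 bases are the whole span of the gene, so the order below is approximate. On that scale Csf1 was the highest of the 10, at 74.2, 87.3 and 76.4 CPM per kb at 0, 2 and 6 µM. At 0 µM it ranked 633 among the tested genes. Ptx3 followed at 31.2, 46.4 and 33.2 CPM per kb and Ptgs2 at 17.2, 25.5 and 21.6. The 4 chemokines lay between 3.67 and 10.5 CPM per kb in every dose group, in the order Cxcl5, Cxcl1, Ccl2, Ccl7. Lif was lower, at 2.04, 2.31 and 2.43 CPM per kb. Saa3, at 0.131, 0.547 and 0.546, and Il6, at 0.0980, 0.196 and 0.0908 CPM per kb, rested on few counts. The order of the means was the same at all 3 doses. Some neighbours in it overlapped between libraries: Cxcl1 with Ccl2 and Ccl2 with Ccl7 at every dose, Cxcl5 with Cxcl1 at 6 µM, and Saa3 with Il6 at 0 µM.

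**Figure D1:**
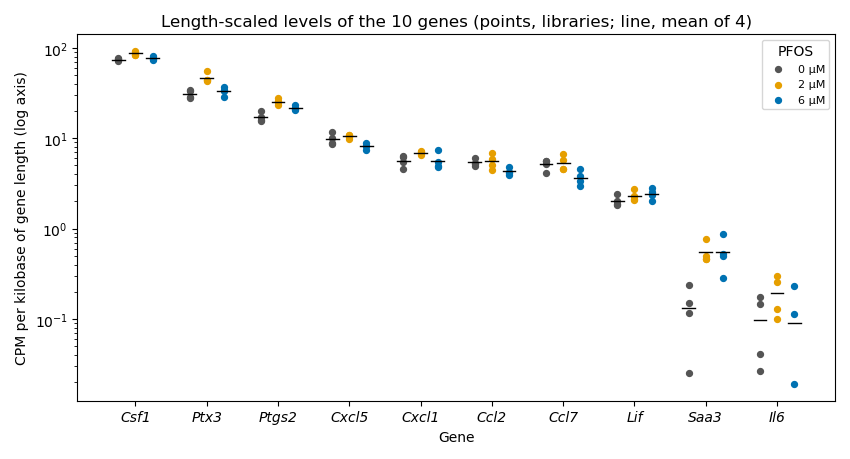
Level of each mediator in CPM per kilobase of gene length (log axis) at 0, 2 and 6 µM PFOS, 1 point per library. Csf1 lies highest, at 74.2 CPM per kb on average at 0 µM, and Il6 lowest, at 0.0980.

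The start regions of these genes were searched for the motifs of the factors named above. RefSeq windows from 250 bases before to 50 bases after the start site (GRCm38.p6) were at hand for 7 of the 10 genes. The 4 windows below belong to the genes that rose at 2 µM. They are Ptgs2 (chr1:150099781-150100080, plus strand), Ptx3 (chr3:66219637-66219936, plus strand), Saa3 (chr7:46715627-46715926, minus strand) and Csf1 (chr3:107760420-107760719, minus strand). Capitals mark matches to C/EBP (TTNNGCAA), the CRE core (ACGTCA) or the NF-kB kB consensus, searched on both strands.
Ptgs2: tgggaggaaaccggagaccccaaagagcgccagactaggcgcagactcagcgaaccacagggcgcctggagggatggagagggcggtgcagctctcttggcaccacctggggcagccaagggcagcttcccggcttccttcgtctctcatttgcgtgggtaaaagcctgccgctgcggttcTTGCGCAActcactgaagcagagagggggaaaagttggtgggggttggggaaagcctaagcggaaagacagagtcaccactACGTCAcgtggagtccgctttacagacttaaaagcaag
Ptx3: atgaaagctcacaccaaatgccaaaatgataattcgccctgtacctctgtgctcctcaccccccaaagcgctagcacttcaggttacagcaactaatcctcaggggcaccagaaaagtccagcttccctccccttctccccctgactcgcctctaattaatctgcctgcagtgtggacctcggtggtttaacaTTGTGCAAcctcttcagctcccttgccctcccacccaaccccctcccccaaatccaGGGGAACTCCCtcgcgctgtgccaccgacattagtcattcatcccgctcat
Saa3: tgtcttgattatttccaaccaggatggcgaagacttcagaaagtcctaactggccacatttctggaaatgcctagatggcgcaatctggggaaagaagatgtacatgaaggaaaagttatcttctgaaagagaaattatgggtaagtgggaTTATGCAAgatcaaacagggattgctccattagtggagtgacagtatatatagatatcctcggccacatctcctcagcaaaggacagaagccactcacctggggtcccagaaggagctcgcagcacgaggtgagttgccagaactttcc
Csf1: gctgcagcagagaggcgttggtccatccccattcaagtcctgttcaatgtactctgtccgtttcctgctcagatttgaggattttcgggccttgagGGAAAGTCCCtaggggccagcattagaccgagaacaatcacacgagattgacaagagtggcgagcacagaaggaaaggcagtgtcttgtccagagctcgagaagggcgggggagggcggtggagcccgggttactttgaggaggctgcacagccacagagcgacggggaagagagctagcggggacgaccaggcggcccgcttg
With the start site as position 0, the C/EBP match began at -69 in Ptgs2, at -57 in Ptx3 and at -99 in Saa3, and Csf1 had none. Ptgs2 also held a CRE core at 12. Csf1 held a kB match at -154, and the kB matches of Ptx3 lay at the start site itself, at -1 and 0 on opposite strands and overlapping.

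Il6 was set beside them because its window (chr5:30012864-30013163, plus strand) held 4 of the 5 motifs searched and its counts were the lowest of the 10. Capitals mark an AP-1 match (TGANTCA), a CRE core, a C/EBP match and a kB match, in that order.
Il6: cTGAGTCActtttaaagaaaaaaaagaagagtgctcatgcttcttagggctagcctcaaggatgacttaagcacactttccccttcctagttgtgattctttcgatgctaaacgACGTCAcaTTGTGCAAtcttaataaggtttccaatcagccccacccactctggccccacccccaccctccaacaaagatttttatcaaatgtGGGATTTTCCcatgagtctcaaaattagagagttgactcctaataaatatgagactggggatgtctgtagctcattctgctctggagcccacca
Over the 7 windows, C/EBP matches occurred in 4 and kB matches in 4, while 10.8% and 4.51% of all 32851 promoter windows of the same length held one. CRE cores occurred in 3 of the 7 (7.51% of all windows) and AP-1 sites in 2 (7.81%). A TATA box written as TATAAA occurred in none of the 7 and in 13.6% of all windows. The motif letters were chosen with these sequences in view, and a match describes the letters only.

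Short decay elements in the 3′ UTRs differed as widely. The pentamer ATTTA, the core of an AU-rich element, was counted in the GENCODE M21 3′ UTR (GRCm38) of 12729 tested genes, taken from the transcript with the longest coding sequence, where its median density was 1.22 per kb. Of the 10 mediators, 9 lay above that median. Over their whole 3′ UTRs the genes shown range from 14.1 pentamers per kb in Il6 to 1.89 in Csf1, which is still above the median. The 30-base stretches with the most copies, with ATTTA in capitals, are those of Ptgs2 (chr1:150105794-150105823, plus strand), Cxcl1 (chr5:90892604-90892633, plus strand), Il6 (chr5:30019677-30019706, plus strand) and Csf1 (chr3:107741109-107741138, minus strand).
Ptgs2: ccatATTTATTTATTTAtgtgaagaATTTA
Cxcl1: gggtcctATTTATTTAtgtATTTATTTAtt
Il6: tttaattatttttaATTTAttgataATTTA
Csf1: tttatataaggtcATTTAaatatctATTTA
The whole 3′ UTR held 14 pentamers in Ptgs2 (5.73 per kb), 7 in Cxcl1 (11.8 per kb), 6 in Il6 (14.1 per kb) and 4 in Csf1 (1.89 per kb). Ptx3 held 2 (3.33 per kb), and Saa3, with a 3′ UTR of 128 bases, held none. The longer nonamer TTATTTATT occurred in Ptgs2, Cxcl1 and Lif, so in 3 of the 10, and in 7.36% of the tested genes with a 3′ UTR.

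Whether PFOS moved these genes was asked at each dose against the untreated cells and between the doses. At 2 µM, 4 of the 10 mediators rose against 0 µM (Ptgs2, Ptx3, Saa3 and Csf1), none fell, and all 10 had a log2 fold change above 0. Leaving out 1 library turned Ccl2 (-0.071 without 2 µM replicate 4) and Ccl7 (-0.028 without 0 µM replicate 2, -0.052 without 2 µM replicate 3) below 0. Over all tested genes, 2.35% changed, 1.61% upwards and 0.742% downwards, in that comparison (edgeR's quasi-likelihood test, Benjamini-Hochberg adjusted p under 0.05). Ptgs2 and Saa3 alone rose at 6 µM against 0 µM and none fell, where 8.24% of all genes changed, 4.58% upwards and 3.66% downwards. Ptx3 and Csf1 fell at 6 µM against 2 µM and none rose, where 1.11% of all genes changed, 0.561% upwards and 0.549% downwards. The median log2 fold change of the 10 was 0.26 at 2 µM and 0.02 at 6 µM against 0 µM, and -0.32 at 6 µM against 2 µM, while the medians of all tested genes were -0.01, -0.02 and 0.00. For 9 of the 10 genes the highest mean was the one at 2 µM, the exception being Lif. For Saa3 the means at 2 and 6 µM were level, at 1.42 CPM each. Ccl2 and Ccl7 at 2 µM were only 1.03- and 1.04-fold over 0 µM. The share of all tested genes with their highest mean at 2 µM was not counted. At an unadjusted p under 0.05, edgeR had 5 higher and none lower at 2 µM against 0 µM, 2 higher and 3 lower at 6 µM against 0 µM, and 7 lower and none higher at 6 µM against 2 µM. The share of all tested genes at that unadjusted threshold was not counted, and the shares above are for adjusted p. Unadjusted counts, here and for the lists and markers, therefore have no share of all genes to be set beside. The 3 comparisons share libraries, so a high 2 µM group moves both comparisons that use it. The 10 genes and the related lists were chosen with earlier results of these data known. Their shares beside those of all genes, here and below, are therefore description only.

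**Figure D2:**
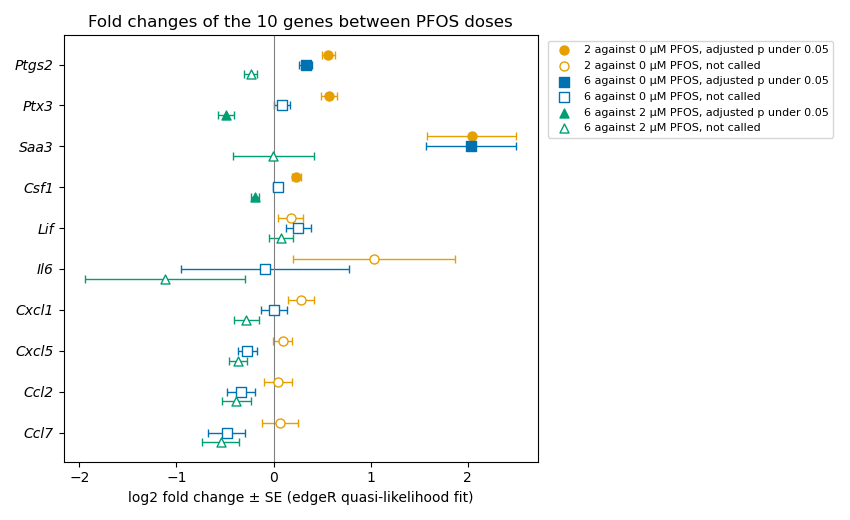
Log2 fold change (points) with its SE (bars) of each mediator for 2 against 0, 6 against 0 and 6 against 2 µM PFOS. All 10 points for 2 against 0 µM lie above 0, although Ccl2 and Ccl7 turn below it when single libraries are left out, and 9 of 10 for 6 against 2 µM lie below it.

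Ptgs2 (ENSMUSG00000032487, chr1:150100031-150108227, plus strand, GRCm38) encodes the inducible cyclooxygenase, which turns arachidonic acid into the precursor of the prostaglandins. Its level was 91.9, 72.4, 79.5 and 71.5 CPM in the 0 µM libraries, 106, 115, 118 and 128 CPM at 2 µM, and 95.8, 107, 98.8 and 94.8 CPM at 6 µM. Every 2 µM and every 6 µM library lay above all 4 untreated ones, and the 2 treated doses overlapped in 1 library pair. The rise was 1.48-fold at 2 µM (log2 0.57, SE 0.0702, 95% interval 1.33 to 1.65, adjusted p = 0.000103) and 1.26-fold at 6 µM (log2 0.33, SE 0.0703, 95% interval 1.13 to 1.40, adjusted p = 0.00428), by edgeR's quasi-likelihood test, Benjamini-Hochberg adjusted. The direct comparison of 6 with 2 µM gave a log2 fold change of -0.24 (SE 0.0695) and did not pass (adjusted p = 0.112). It did pass with DESeq2 (adjusted p = 0.0389), without a count filter (0.00298), with only the 8 libraries of both doses (0.0289) and without 0 µM replicate 1 (0.0357).

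The genes whose pattern over the 12 libraries lay nearest to Ptgs2 were Inhba, which encodes an activin subunit, and Ereg, which encodes the growth factor epiregulin. Their root mean square distances in mean-centred log2 CPM were 0.0975 and 0.0996, against a spread of 0.257 for Ptgs2 itself.

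Ptx3 (ENSMUSG00000027832, chr3:66219910-66225805, plus strand) encodes a long pentraxin, a soluble pattern recognition protein made at sites of inflammation. It was at 92.0, 77.4, 90.1 and 74.8 CPM in the 0 µM libraries, 115, 117, 119 and 147 CPM at 2 µM, and 89.4, 97.7, 92.6 and 76.0 CPM at 6 µM. The 2 µM libraries stood above all 8 others, and the 6 µM libraries overlapped the untreated ones. Ptx3 rose 1.49-fold at 2 µM against 0 µM (log2 0.57, SE 0.0832, 95% interval 1.31 to 1.70, adjusted p = 0.000443). It was 1.40-fold lower at 6 µM than at 2 µM (log2 -0.49, SE 0.0827, adjusted p = 0.00268). The fold at 6 µM against 0 µM was 1.06, with a 95% interval of 0.933 to 1.21, and did not pass (adjusted p = 0.593). These 3 tests are edgeR's quasi-likelihood test, Benjamini-Hochberg adjusted, and both calls held in all 22 alternative settings. Veph1 overlaps Ptx3 on the opposite strand, but had at most 40 counts in any library.

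The nearest patterns to Ptx3 were those of Gadd45a, a DNA damage and stress response gene, at a distance of 0.0949, and of Ankrd1, a muscle ankyrin repeat gene, at 0.111. The spread of Ptx3 was 0.287. Gadd45a averaged 97.0, 139 and 110.2 CPM and Ankrd1 254, 334 and 271 CPM at 0, 2 and 6 µM.

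Saa3 (ENSMUSG00000040026, chr7:46711998-46715700, minus strand) encodes an acute phase serum amyloid A that mice make mostly outside the liver. It had 20, 18, 12 and 2 counts in the 0 µM libraries, 47, 60, 54 and 91 counts at 2 µM, and 59, 33, 99 and 51 counts at 6 µM. In CPM these were 0.612, 0.390, 0.300 and 0.0652 at 0 µM, 1.19, 1.20, 1.29 and 2.02 at 2 µM, and 1.36, 0.745, 2.29 and 1.30 at 6 µM. No treated library overlapped an untreated one, and the 2 treated doses overlapped each other. Saa3 rose 4.11-fold at 2 µM (log2 2.04, SE 0.461, 95% interval 2.00 to 8.48, adjusted p = 0.0201) and 4.10-fold at 6 µM (log2 2.04, SE 0.462, 95% interval 1.99 to 8.46, adjusted p = 0.00716), both from edgeR's quasi-likelihood test, Benjamini-Hochberg adjusted. Between 6 and 2 µM the fold was 0.998, with an interval of 0.520 to 1.91. The call at 2 µM ended without 0 µM replicate 2 (adjusted p = 0.0528), without 0 µM replicate 3 (0.0546) and without 2 µM replicate 4 (0.101). Even numbers made up 61.6% of all table values from 1 to 20, so a count may not be 1 independent fragment, and with every count halved the adjusted p was 0.0142 at 2 µM. The paralogues Saa1 and Saa2 had at most 4 and 2 counts in a library and Saa4 had none. By the same distance measure, Slamf9 (0.573) and Prss12 (0.665) lay nearest to Saa3, whose own spread was 1.19. Slamf9 averaged 0.522, 1.04 and 0.889 CPM and Prss12 0.466, 1.23 and 1.07 CPM at 0, 2 and 6 µM. Like Saa3, both rested on few counts.

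Csf1 (ENSMUSG00000014599, chr3:107741048-107760469, minus strand) encodes the macrophage colony-stimulating factor. It was at 394, 394, 406 and 374 CPM in the 0 µM libraries, 435, 445, 478 and 487 CPM at 2 µM, and 395, 427, 388 and 404 CPM at 6 µM. As with Ptx3, the 2 µM libraries lay above all others and the 6 µM range overlapped the untreated one. The rise at 2 µM against 0 µM was 1.18-fold (log2 0.23, SE 0.0439, 95% interval 1.10 to 1.26, adjusted p = 0.00652 by edgeR's quasi-likelihood test, Benjamini-Hochberg adjusted). Csf1 was 1.14-fold lower at 6 µM than at 2 µM (log2 -0.19, SE 0.0439, adjusted p = 0.0317). That second call ended without 2 µM replicate 3 (adjusted p = 0.126) or 4 (0.141), and without 6 µM replicate 1 (0.110), 3 (0.134) or 4 (0.0929). It also ended without the 3 most deviating libraries (0.0815) and with the replicate number as a block in the model (0.0645). The fold at 6 µM against 0 µM was 1.03 and did not pass (adjusted p = 0.639). Zfp131 (0.0443) and Enkd1 (0.0493) had the nearest patterns, and the spread of Csf1 was 0.116. Csf1r, which encodes its receptor, had at most 8 counts in a library.

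**Figure D3:**
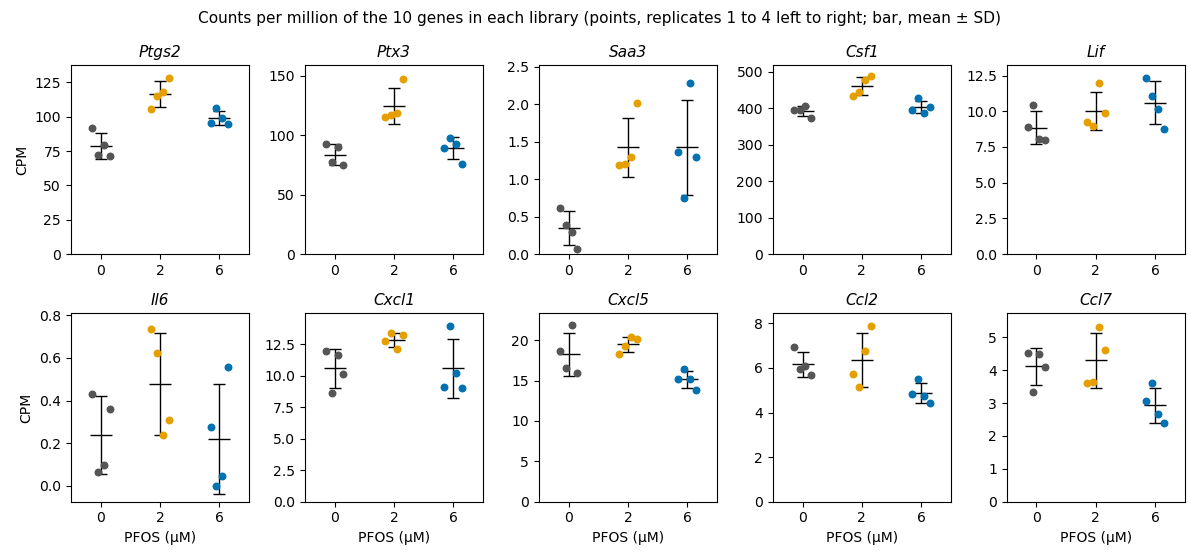
CPM of each mediator in every library (points) with the mean and SD (bars) at 0, 2 and 6 µM PFOS, each panel on its own axis. The 2 µM points of Ptgs2, Ptx3, Csf1, Saa3 and Cxcl1 lie above all 0 µM points.

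Il6 (ENSMUSG00000025746, chr5:30013114-30019981, plus strand) and Lif (ENSMUSG00000034394, chr11:4257557-4272514, plus strand) encode cytokines of 1 family, which signal through the shared receptor subunit Il6st. Il6 had 14, 3, 4 and 11 counts in the 0 µM libraries, 29, 31, 10 and 14 at 2 µM, and 12, 0, 2 and 22 at 6 µM. The doses overlapped, and each held libraries with many fewer counts than others of the same dose. The fold at 2 µM against 0 µM was 2.05, with a 95% interval of 0.555 to 7.55 (adjusted p = 0.635, edgeR's quasi-likelihood test, Benjamini-Hochberg adjusted), so no change was detectable at this depth. In the 6 µM library without a count, a floor of 3 counts allows up to 0.0677 CPM. Lif stood at 8.88, 10.5, 8.07 and 8.01 CPM in the 0 µM libraries, 9.28, 8.995, 11.96 and 9.90 CPM at 2 µM, and 12.4, 11.04, 10.2 and 8.79 CPM at 6 µM. Its fold was 1.13 at 2 µM (95% interval 0.925 to 1.38) and 1.19 at 6 µM (0.978 to 1.46), and neither passed (adjusted p = 0.585 and 0.251).

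Cxcl1 (ENSMUSG00000029380, chr5:90891241-90893115, plus strand) and Cxcl5 (ENSMUSG00000029371, chr5:90759360-90761624, plus strand) encode chemokines that attract neutrophils, and lie 129616 bases apart on chromosome 5. Cxcl1 was at 11.97, 8.62, 11.7 and 10.2 CPM in the 0 µM libraries, 12.8, 13.4, 12.1 and 13.2 CPM at 2 µM, and 9.15, 14.0, 10.2 and 9.02 CPM at 6 µM. All 2 µM libraries lay just above all untreated ones, but the fold of 1.22 (95% interval 0.990 to 1.49) did not pass (adjusted p = 0.329 by edgeR's quasi-likelihood test, Benjamini-Hochberg adjusted). With Cxcl1, 5 of the 10 mediators did not overlap between 2 and 0 µM in the upward direction, against 4.77% of all tested genes, and none in the downward direction, against 3.60%. Between 6 and 0 µM, Ptgs2 and Saa3 were higher with no overlap, against 6.39% of all tested genes. Cxcl5 was at 18.7, 16.6, 21.8 and 15.9 CPM at 0 µM, 18.3, 19.3, 20.3 and 20.1 CPM at 2 µM, and 15.2, 16.4, 15.2 and 13.8 CPM at 6 µM. Its 6 µM libraries lay below all 2 µM ones, with a log2 fold change of -0.37 (SE 0.0955) between them, which did not pass (adjusted p = 0.0665). It passed with DESeq2 (0.0203), without a count filter (0.0206), with only the 8 libraries of both doses (0.0270), and without 0 µM replicate 3 (0.0422) or 4 (0.0492). Its log2 fold change at 6 µM against 0 µM was -0.27 (SE 0.0962, adjusted p = 0.0886). Without 0 µM replicate 4 it passed (0.0426).

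Ccl2 (ENSMUSG00000035385, chr11:82035571-82037453, plus strand) and Ccl7 (ENSMUSG00000035373, chr11:82045712-82047525, plus strand) encode chemokines that attract monocytes, and lie 8258 bases apart on chromosome 11. Ccl2 was at 6.95, 5.96, 6.07 and 5.67 CPM in the 0 µM libraries, 5.71, 5.13, 6.76 and 7.88 CPM at 2 µM, and 4.84, 5.49, 4.74 and 4.45 CPM at 6 µM. All its 6 µM libraries lay below all untreated ones, and it was the only 1 of the 10 to do so, against 6.15% of all tested genes. The log2 fold change of -0.34 (SE 0.149) did not pass (adjusted p = 0.184, edgeR's quasi-likelihood test, Benjamini-Hochberg adjusted). Ccl7 was at 4.53, 3.34, 4.50 and 4.11 CPM at 0 µM, 3.62, 3.65, 5.32 and 4.61 CPM at 2 µM, and 3.07, 3.61, 2.68 and 2.39 CPM at 6 µM. Its 6 µM libraries lay below all 2 µM ones, with a log2 fold change of -0.55 (SE 0.186, adjusted p = 0.188). Between 6 and 2 µM, 4 of the 10 mediators (Ptx3, Csf1, Cxcl5 and Ccl7) were lower with no overlap, against 4.15% of all tested genes, and none was higher with no overlap, against 4.45%. At 2 µM against 0 µM the folds of Ccl2 and Ccl7 were 1.03 and 1.04.

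The 10 genes were also followed library by library. Their summed level was 603 ± 31.8 CPM at 0 µM, 757 ± 50.3 at 2 µM and 637 ± 30.8 at 6 µM (SD, n = 4 each), and Csf1 made up 65.1%, 60.9% and 63.4% of it. Within a dose, single libraries were high or low for several mediators, and how often they were so over all tested genes was not counted. At 0 µM, replicate 1 held the highest value for 7 of the 10 and replicate 4 the lowest for 7. At 2 µM, replicate 4 was highest for 5 and replicate 1 lowest for 6, and at 6 µM replicate 2 was highest for 7 and replicate 4 lowest for 7. Of these, 0 µM replicate 1 and 6 µM replicate 2 were also among the 3 most deviating libraries. 

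Of 31 receptor and signal transducer genes of these mediators, 23 had enough counts to be tested. Ccr1, Ccr2, Ccr3, Cxcr1 and Cxcr2, the receptors of the chemokines, had no count in any library. Of the 23, 2 rose at 2 µM and 2 at 6 µM against 0 µM, and none fell. That is 8.70% of them at each dose, against 2.35% of all tested genes at 2 µM and 8.24% at 6 µM, so the share at 6 µM was near that of all genes. The count at 2 µM fell to 1 without 0 µM replicate 2 or 4 or 2 µM replicate 2, and to 0 without 2 µM replicate 4. The count at 6 µM was 1 without any 1 of 0 µM replicates 2 and 3 and 6 µM replicates 1, 3 and 4, 4 without 0 µM replicate 4, and 0 without the 3 most deviating libraries. Il6st, the shared subunit for Il6 and Lif, averaged 279 CPM at 2 µM and 245 CPM at 0 µM (1.14-fold, adjusted p = 0.0216, edgeR's quasi-likelihood test, Benjamini-Hochberg adjusted). Its call ended without 0 µM replicate 2 (0.0784) or 2 µM replicate 4 (0.125). Ackr3, a chemokine scavenger receptor, averaged 24.8 CPM at 2 µM and 18.2 CPM at 0 µM (1.36-fold, adjusted p = 0.0272), and 25.0 CPM at 6 µM (1.37-fold, adjusted p = 0.00880). Its call at 2 µM ended without 0 µM replicate 1 (0.0629), 3 (0.0686) or 4 (0.0661) and without 2 µM replicate 2 (0.110) or 4 (0.126). Jak1, a kinase bound to Il6st, averaged 273 CPM at 6 µM and 247 CPM at 0 µM (1.11-fold, adjusted p = 0.0362). That call ended in 9 of 22 alternative settings, among them without 0 µM replicate 2 (0.0938) or 3 (0.136) and without 6 µM replicate 1 (0.0831), 3 (0.106) or 4 (0.0616).

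Among the other prostanoid genes, 3 of 16 tested (18.8%, against 8.24% of all genes) rose at 6 µM against 0 µM and none fell. Without the 3 most deviating libraries the count was 1. Ptgs1, the constitutive cyclooxygenase, averaged 83.4 CPM at 6 µM and 70.4 CPM at 0 µM (1.18-fold, adjusted p = 0.0106, edgeR's quasi-likelihood test, Benjamini-Hochberg adjusted). Ptges3, which encodes the cytosolic prostaglandin E synthase and Hsp90 cochaperone, averaged 189 CPM at 6 µM and 166 CPM at 0 µM (1.14-fold, adjusted p = 0.00842). Abcc4, an exporter of prostaglandins, averaged 52.8 CPM at 6 µM and 44.2 CPM at 0 µM (1.20-fold, adjusted p = 0.0151), and was no longer called without 0 µM replicate 3 (0.0508). At 2 µM none of the 16 was called by edgeR or limma-voom and 1 by DESeq2, with 1 higher and 1 lower at an unadjusted p under 0.05, and edgeR called 1 without 0 µM replicate 1.

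Of the acute phase and humoral genes, 13 were tested besides Saa3 and Ptx3. At 2 µM against 0 µM, 2 fell and none rose (15.4%, against 2.35% of all genes), and at 6 µM 2 fell and 1 rose (23.1%, against 8.24%). The count at 2 µM was 1 without any 1 of 0 µM replicates 1 and 3 and 2 µM replicates 1, 2 and 4. Cp, the copper carrier ceruloplasmin, averaged 59.2 CPM at 2 µM and 74.1 CPM at 0 µM (1.25-fold lower, adjusted p = 0.00239), and 55.4 CPM at 6 µM (1.34-fold lower, adjusted p = 2.5e-05). Mt1, a metallothionein, averaged 432 CPM at 6 µM and 342 CPM at 0 µM (1.26-fold, adjusted p = 0.00240). All these tests are edgeR's quasi-likelihood test, Benjamini-Hochberg adjusted.

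Many other cytokines and most other chemokines had too few counts to be tested. Of 37 other cytokine genes, 18 were tested, and Tnf, Il1b, Csf2 and Csf3 were not among them. Of the 18, 2 rose and 2 fell in the 6 µM libraries against 0 µM, while at 2 µM none was called by edgeR, with 3 higher and 2 lower at an unadjusted p under 0.05. The 4 calls at 6 µM are 22.2% of the list, against 8.24% of all genes, and they were 2 without 0 µM replicate 3, without 6 µM replicate 1 and without the 3 most deviating libraries. At 2 µM edgeR called 1 without 0 µM replicate 1. Spp1, the matrix cytokine osteopontin, averaged 989 CPM at 6 µM and 829.6 CPM at 0 µM (1.19-fold, adjusted p = 0.000351, edgeR's quasi-likelihood test, Benjamini-Hochberg adjusted). Il33, an alarmin, averaged 10.2 CPM at 6 µM and 13.6 CPM at 0 µM (1.34-fold lower, adjusted p = 0.0281). Its call ended without 0 µM replicate 3 (0.113) or 4 (0.0691) and without 6 µM replicate 1 (0.0868) or 2 (0.0760). Of 29 other chemokines 6 were tested, and none was called by edgeR in any comparison over all 12 libraries. It called 1 at 2 µM without 0 µM replicate 1, and 1 at 6 µM without 0 µM replicate 2 or 6 µM replicate 3. DESeq2 called 1 of them at 2 µM and 1 at 6 µM, and at an unadjusted p under 0.05 edgeR had 1 lower in each.

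The regulators through which such genes are usually switched on moved unevenly. Of 26 tested NF-kB and feedback genes, 1 rose at 2 µM and none was called at 6 µM against 0 µM, where limma-voom called none, DESeq2 called 1, and 6 were higher and 2 lower at an unadjusted p under 0.05. The calls are 3.85% and 0% of the list, against 2.35% and 8.24% of all genes, so the share at 2 µM was near that of all genes. The gene that rose was Tnfaip2, a TNF-inducible gene, at 176 CPM at 2 µM and 150.4 CPM at 0 µM (1.17-fold, adjusted p = 0.0114), a call that ended without 2 µM replicate 4 (0.0731). Nfkbia, which encodes an NF-kB inhibitor and was picked after its value was seen, did not pass at 2 µM (adjusted p = 0.887). NF-kB activity was not tested. Of 30 upstream transcription factors and kinases, 5 rose at 2 µM and 5 at 6 µM against 0 µM, none fell, and Atf3, Atf4, Fosl1 and Jun were in both sets. Each count is 16.7% of the list, against 2.35% and 8.24% of all genes. The count at 2 µM was 3 without 0 µM replicate 2 or 4, without 2 µM replicate 1 or without the 3 most deviating libraries, and 2 without 2 µM replicate 2 or 4. The count at 6 µM was 2 without the 3 most deviating libraries. Atf3 and Fosl1 held at both doses in all 22 alternative settings, so Jun was not called where the count was 2. Atf3, a stress-induced CREB/ATF factor, averaged 43.7 CPM at 2 µM and 25.1 CPM at 0 µM (1.74-fold, adjusted p = 0.000163), and 39.2 CPM at 6 µM (1.56-fold, adjusted p = 0.000351). Fosl1, an AP-1 subunit, averaged 48.8 CPM at 2 µM and 36.6 CPM at 0 µM (1.33-fold, adjusted p = 0.00497), and 54.5 CPM at 6 µM (1.49-fold, adjusted p = 3.1e-05). Atf4, the factor of the integrated stress response, averaged 1028 CPM at 2 µM and 923 CPM at 0 µM (1.11-fold, adjusted p = 0.0245), and 1039 CPM at 6 µM (1.12-fold, adjusted p = 0.00443). The 2 µM call of Atf4 ended without 0 µM replicate 4 (0.0572) and without 2 µM replicate 1 (0.0539), 2 (0.0726) or 4 (0.0947). All p-values here are from edgeR's quasi-likelihood test, Benjamini-Hochberg adjusted.

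The genes that govern decay of AU-rich mRNAs gave 1 rise in 18 at 2 µM, and 1 rise and 2 falls at 6 µM against 0 µM. These are 5.56% and 16.7% of the list, against 2.35% and 8.24% of all genes. The count at 2 µM was 2 by DESeq2, without 0 µM replicate 1 and without the 3 most deviating libraries. The count of 3 at 6 µM was 7 by DESeq2, 6 without a count filter, and 5 by limma-voom and without 0 µM replicate 1 or 4. Zfp36l2, an mRNA-destabilising zinc finger gene, averaged 314 CPM at 2 µM and 274 CPM at 0 µM (1.14-fold, adjusted p = 0.0106), and 315 CPM at 6 µM (1.15-fold, adjusted p = 0.00211). Its relative Zfp36l1 averaged 13.5 CPM at 6 µM and 19.6 CPM at 0 µM (1.44-fold lower, adjusted p = 0.000821). Tia1, which encodes a translational silencer that binds AU-rich elements, averaged 61.0 CPM at 6 µM and 79.2 CPM at 0 µM (1.30-fold lower, adjusted p = 0.00210). These tests are edgeR's quasi-likelihood test, Benjamini-Hochberg adjusted.

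Between 6 and 2 µM, no gene of the 8 related lists was called by edgeR's quasi-likelihood test over all 12 libraries. At an unadjusted p under 0.05 their 150 tested genes held 14 higher and 11 lower ones in that comparison, DESeq2 called 3 and limma-voom 1. With other settings edgeR called 6 without a count filter, 4 with only the 8 libraries of both doses, 2 with upper-quartile scaling or a mean count of at least 50, 2 without 0 µM replicate 1, and 1 without 0 µM replicate 4, 2 µM replicate 1, 6 µM replicate 3 or the 3 most deviating libraries. Without the 3 most deviating libraries, the 6 µM calls of Ptgs1 (adjusted p = 0.139), Abcc4 (0.139), Ackr3 (0.0555), Il33 (0.0646), Jak1 (0.0910), Zfp36l2 (0.0667) and Atf4 (0.0863) ended, as did the 2 µM calls of Ackr3 (0.0685) and Atf4 (0.0544).

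**Figure D4:**
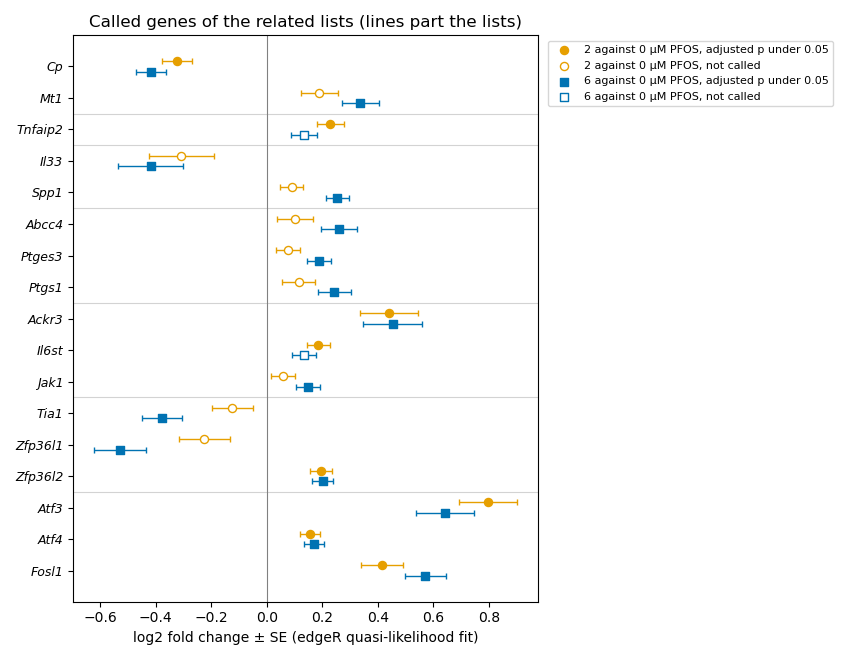
Log2 fold change with its SE of the related genes named in the text at 2 and at 6 µM, each against 0 µM PFOS, grouped by list. Atf3 has the highest fold among them, 1.74 at 2 µM, and Zfp36l1 the lowest at 6 µM, 1.44-fold lower.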

How the data were processed

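The authors deposited raw gene counts of the 12 libraries as whole numbers. HISAT2 was the aligner and GRCm39 the build, per the submitters' processing notes. The table's coordinates of the 10 genes are those of GENCODE M21 on GRCm38, so they are named as GRCm38. For the counting program, strand setting and annotation, the sources used here name none. Without strand, overlapping genes cannot be told apart.

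The count test was that of edgeR 4.0.16, run in R 4.3.3. The filter was filterByExpr with dose as the group, the scaling TMM, and the fit a quasi-likelihood model with 1 mean per dose over all 12 libraries (9 residual degrees of freedom). It kept 16038 genes and left out 38494. Benjamini-Hochberg adjustment ran over all genes tested, and a call is an adjusted p under 0.05. The SE is the absolute log2 fold change over the root of F, and 95% intervals use 9 degrees of freedom. The quasi-likelihood test moderates its degrees of freedom over genes, so intervals and p-values do not match exactly. An interval can cover 1 where the test's unadjusted p is under 0.05, as for Cxcl1 at 2 against 0 µM (0.0428). Intervals and floors cover counting error and the spread between libraries only. The common biological coefficient of variation was 10.8%.

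Sample titles gave the dose of each library. Alternatives were DESeq2 1.42.0, limma-voom (limma 3.58.1), other scalings and filters, fewer libraries and a replicate block. The steps were tested on simulated data. The 10 genes, the related lists and the motifs were chosen with earlier results of these data known. The related genes named are, per list, up to 3 called in any comparison with the smallest adjusted p, and per called mediator the 2 nearest patterns. Genes picked out beyond that rule (Nfkbia, Jun, receptors, paralogues, Tnf, Il1b, Csf2 and Csf3) were chosen after their values were seen. No protein comparison was made. The values of 2 related genes that the rule names are not reported here.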

Additional observations from a re-analysis of the deposited data

Results flagged for a closer look

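Within each group of 4 libraries, the gap of the highest or lowest value to its nearest neighbour was set against the whole range, for 10 genes at 3 doses. Of these 30 groups, 2 held a library far from the other 3, both times 2 µM replicate 4. Ptx3 was at 147 CPM there, against 115 to 119 CPM in the other 2 µM libraries. Saa3 was at 2.02 CPM there, against 1.19 to 1.29 CPM. Chance flags about 1 in 20 groups. Without that library the Ptx3 call at 2 µM against 0 µM held and that of Saa3 ended (adjusted p = 0.101, edgeR's quasi-likelihood test, Benjamini-Hochberg adjusted).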

How the results depend on the processing

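The calls of Ptgs2, Ptx3 and Csf1 at 2 versus 0 µM, of Ptgs2 and Saa3 at 6 versus 0 µM, and of Ptx3 at 6 versus 2 µM held in each of the 22 alternative settings that gave a value. A mean count of at least 50 removed Saa3 and Il6, and DESeq2 gave no adjusted p for some of their comparisons. Depth limits both genes. Of 647 values for the 10 genes, 606 kept direction and call, 10 lost a call, 10 gained one and 21 changed sign. Of the 572 values for the related genes that the naming rule picks, 531 kept their call, 41 lost it and none changed sign.

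The number of the 10 genes called was 3 to 4 in every setting at 2 versus 0 µM. For 6 versus 0 µM it was 2, with 1 at the mean count of 50 and 2 to 3 leaving out 1 library. For 6 versus 2 µM it was 2, with 4 by DESeq2, without a count filter and with only the 8 libraries of both doses, 1 without the 3 most deviating libraries, and 1 to 3 leaving out 1 library.

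Over all genes at 2 versus 0 µM, 258 rose, with 514 by DESeq2, 438 without a count filter and 72 to 322 leaving out 1 library (139 without 0 µM replicate 2, 157 without 2 µM replicate 2, 72 without 2 µM replicate 4), and 119 fell, with 217, 193 and 34 to 168. At 6 versus 0 µM, 735 rose and 587 fell, with 408 and 302 without the 3 most deviating libraries, and 513 to 789 and 398 to 592 leaving out 1 library. At 6 versus 2 µM, 90 rose, with 223 by DESeq2, 177 without a count filter, 174 with 8 libraries and 45 to 138 leaving out 1 library, and 88 fell, with 203, 224, 133 and 33 to 121, and 55 without the 3 most deviating libraries. The cause was not tested.

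Same-numbered libraries of different doses showed little shared deviation (correlations of -0.03 to 0.04 over 12 pairs, none over 0.1, and 5 of 12 libraries nearest to their own number). The correlations weigh all tested genes alike, so noise of low counts can hide a pairing, and the labels state none. With the replicate block, 1 of the 10 genes was called at 6 versus 2 µM, where Csf1 had an adjusted p of 0.0645, and 54 genes fell there.

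Uncalled log2 fold changes that changed sign were, at 2 versus 0 µM, Ccl2 (-0.071 to 0.14 leaving out 1 library, below 0 without 2 µM replicate 4) and Ccl7 (-0.052 to 0.14, below 0 without 0 µM replicate 2 or 2 µM replicate 3). At 6 versus 0 µM they were Il6 (-1.09 to 0.38 leaving out 1 library, 1.31 without the 3 most deviating libraries) and Cxcl1 (-0.16 to 0.073 leaving out 1 library, -0.011 with upper-quartile scaling, -0.0016 at the mean count of 50, -0.0075 with the replicate block, -0.15 without the 3 most deviating libraries). At 6 versus 2 µM they were Saa3 (-0.33 to 0.21 leaving out 1 library, 0.011 with counts halved, a setting chosen after seeing the data) and Lif (-0.0023 to 0.18, below 0 without 6 µM replicate 1).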
